A study of Danio rerio with 6 samples.

Results

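Thymic and lysosomal proteases listed under antigen processing, together with an endocytic receptor, were followed in the thymus of zebrafish lacking *foxn1*. A role in antigen processing was not tested for any of them. The set was defined by gene name and chosen with earlier results of these data known. It lists 10 genes: *prss16*, *ly75*, *enpep*, *ctsla*, *ctss2.1*, *ctss2.2*, *lgmn*, *ctsba*, *ctsd* and *ctsk*. Of these, 9 could be matched to an Ensembl identifier among the 32520 of the count tables. No identifier carried the symbol *prss16*, the serine protease that marks cortical thymic epithelium in mice and humans, so this gene was not analysed here. The identifier used for *ctsba* is listed as *CTSB*, and *ctsbb* has an identifier of its own.

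Thymi came from adult fish of 3 months that were either *foxn1*-/- (homozygous for an internal deletion of *foxn1*) or *foxn1*+/+, with 3 libraries per genotype. Each library was made from whole-organ RNA of 3 fish, 18 fish in all, so that thymocytes, epithelium and surrounding tissue were measured together. The Methods give an *ikzf1*:EGFP background for the fish used in RT-PCR and do not state it for these libraries. Read counts per gene summed to between 40960276 and 42198532 in *foxn1*-/- libraries and between 31989159 and 41685232 in *foxn1*+/+ libraries. CPM below are read counts relative to library sizes scaled by TMM, a normalization that assumes most genes to be unchanged. Here 72.1% of genes tested differed between genotypes (edgeR, adjusted p under 0.05), so this assumption was not met. The TMM factors lay between 0.838 and 0.886 in *foxn1*-/- libraries and between 1.12 and 1.18 in *foxn1*+/+ libraries. CPM are not divided by gene length, so levels of different genes were not ranked against each other. A count of 3 equals between 0.0623 and 0.0874 CPM in these libraries, and this floor covers counting error only. The deleted gene itself had 114, 129 and 66 counts in *foxn1*-/- libraries and 495, 375 and 349 counts in *foxn1*+/+ libraries. The tables give 1 count per gene, so reads from inside and outside the deletion were not separated.

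Thymic epithelial cells and other antigen-presenting cells take up proteins into endosomes and lysosomes, where cathepsins and legumain degrade both the antigens and the invariant chain that guards the groove of MHC class II molecules. In mice, cathepsin L serves this purpose in cortical thymic epithelium and cathepsin S in dendritic cells and B cells, and mice lacking cathepsin L select few CD4 T cells. *Foxn1* is the transcription factor on which the differentiation of thymic epithelium depends.

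All 9 genes differed between genotypes, but in opposite directions. *enpep*, *ctsla*, *ctsk*, *ctsd* and *lgmn* rose in *foxn1*-/- thymi, whereas *ly75*, *ctss2.1*, *ctsba* and *ctss2.2* fell (edgeR's quasi-likelihood test, adjusted p under 0.05 over 23805 genes). Such calls were frequent in this comparison: 72.1% of all genes tested were called, 36.2% as higher and 35.9% as lower in *foxn1*-/- thymi. That every gene of the set was called is therefore close to the background. The sizes of the changes were more unequal. In 4 genes the difference was more than 5-fold, *enpep* and *ctsla* in one direction and *ly75* and *ctss2.1* in the other. By absolute log2 fold change these 4 stood between percentiles 82.2 and 84.9 of all genes tested. Of the 9 genes, 6 were both called and more than 2-fold different, as were 52.8% of all genes tested. In normalized CPM the genotypes did not overlap for any of the 9 genes, as for 77.2% of all genes tested, 37.8% with all *foxn1*-/- libraries higher and 39.3% with all of them lower. In raw counts only *lgmn* overlapped. The median log2 fold change was 0.68 over the 9 genes and 0.02 over all genes tested.

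**Figure D1:**
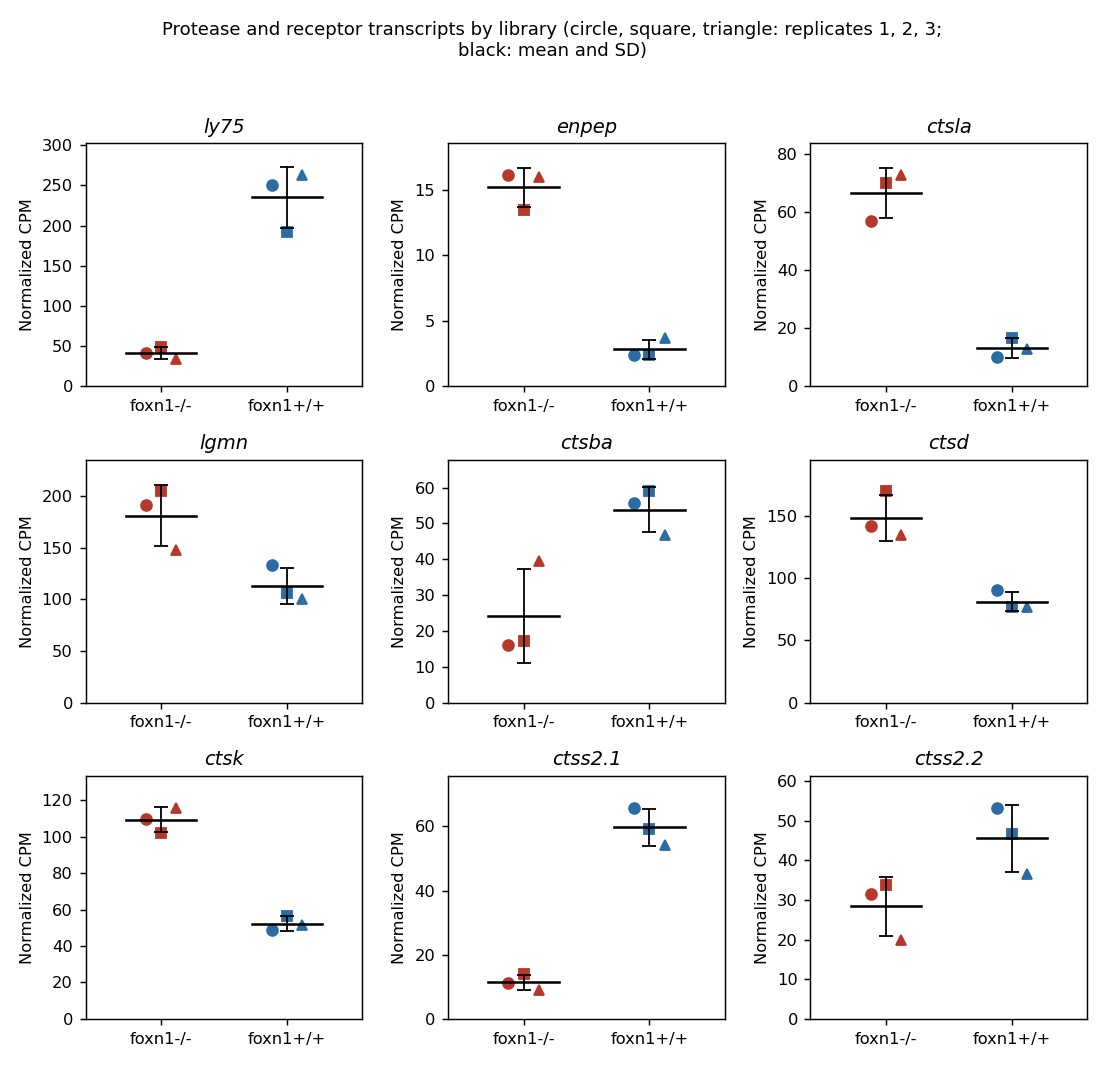
Normalized CPM of each of the 9 genes in each library, with *foxn1*-/- libraries in red and *foxn1*+/+ libraries in blue; each symbol is 1 library, and black lines give mean and SD (n = 3). The *foxn1*-/- libraries lie above all *foxn1*+/+ libraries for *enpep*, *ctsla*, *lgmn*, *ctsd* and *ctsk*, and below them for the other 4 genes.

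*ly75* and *enpep*, which mark cortical epithelium in mice, moved apart. *ly75* (ENSDARG00000053113) encodes the endocytic receptor DEC-205, which in mammals is carried by cortical thymic epithelium and dendritic cells. It had 1415, 1832 and 1289 counts in *foxn1*-/- libraries, against 12056, 7228 and 9853 counts in *foxn1*+/+ libraries. The highest *foxn1*-/- library thus stayed well below the lowest *foxn1*+/+ library. Mean levels were 41.7 ± 7.43 CPM in *foxn1*-/- thymi and 235 ± 37.9 CPM in *foxn1*+/+ thymi (SD, n = 3 each). The log2 fold change was -2.50 (SE 0.186, adjusted p = 5.5e-05, edgeR). At this value *ly75* stood at percentile 6.92 of the log2 fold changes of all genes tested.

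*enpep* (ENSDARG00000057064) encodes glutamyl aminopeptidase, a membrane enzyme known in mice as the Ly51 antigen of cortical epithelium and present in kidney and gut as well. It had 553, 499 and 598 counts in *foxn1*-/- libraries and 116, 89 and 137 counts in *foxn1*+/+ libraries. Every *foxn1*-/- library held more than every *foxn1*+/+ library. Mean levels were 15.2 ± 1.52 CPM in *foxn1*-/- thymi and 2.81 ± 0.732 CPM in *foxn1*+/+ thymi (SD, n = 3 each), a log2 fold change of 2.43 (SE 0.212, adjusted p = 9.2e-05, edgeR). Leaving out single libraries or changing the test, scaling or filter kept both genes past the threshold, with log2 fold changes between -2.90 and -2.30 for *ly75* and between 2.03 and 2.63 for *enpep*.

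Markers of several cell types moved between the same libraries. All 13 thymocyte markers tested were lower in *foxn1*-/- thymi, with summed levels between 247 and 667 CPM in *foxn1*-/- libraries and between 9782 and 12647 CPM in *foxn1*+/+ libraries. Of 12 identifiers for thymic epithelium, 6 were higher and 4 lower, and their sum lay between 1101 and 1650 CPM in *foxn1*-/- libraries and between 787 and 1077 CPM in *foxn1*+/+ libraries. As unscaled shares of all counts the genotypes overlapped. These shares were 0.138%, 0.119% and 0.0975% in *foxn1*-/- libraries and 0.124%, 0.113% and 0.0882% in *foxn1*+/+ libraries. Most of the sum in *foxn1*-/- libraries came from *ccl25b*, a chemokine gene. Without it, a step chosen after seeing the data, the sums overlapped in normalized CPM, at 614, 370 and 372 CPM in *foxn1*-/- libraries and 821, 572 and 523 CPM in *foxn1*+/+ libraries. Shares of all counts without *ccl25b* were not computed. Among the markers *psmb11a* (listed as *PSMB11*), a thymoproteasome subunit of cortical epithelium, had 0 counts in each *foxn1*-/- library and between 1597 and 2509 counts in *foxn1*+/+ libraries. For *enpep*, which is also found in pericytes, enterocytes and kidney tubules, 4 of 6 pericyte markers were higher, with sums between 156 and 226 CPM in *foxn1*-/- libraries and between 72.9 and 152 CPM in *foxn1*+/+ libraries. As unscaled shares of all counts the pericyte sums overlapped. They lay between 0.0138% and 0.0189% in *foxn1*-/- libraries and between 0.00842% and 0.0178% in *foxn1*+/+ libraries. Of 7 enterocyte markers tested, none was higher and 5 were lower, with sums between 13.7 and 17.0 CPM in *foxn1*-/- libraries and between 127 and 131 CPM in *foxn1*+/+ libraries. Of 5 kidney tubule markers tested, 3 were higher and 2 lower. The number lower was 1 when any library other than *foxn1*-/- replicate 2 was left out. Without any 1 of the *foxn1*-/- libraries, only 4 passed the filter, and 2 of these were higher. Sums of the kidney tubule list lay between 29.6 and 49.0 CPM in *foxn1*-/- libraries and between 10.5 and 12.8 CPM in *foxn1*+/+ libraries. The part of these cells in the changes of *ly75* and *enpep* was not tested, and in whole thymi fewer cells of a type and less RNA per cell cannot be told apart.

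The pattern of *enpep* over the 6 libraries was most like that of *TECR*, *myh7ba* and *PKNOX2* (Pearson r of log2 CPM between 0.9996 and 0.9997 among 9828 genes that averaged 10 CPM or more), and that of *ly75* was most like *RNF216*, *GIT2* and *n4bp2* (r between 0.9995 and 0.9996 among 9827 genes). These are descriptions over 6 libraries in 2 genotypes, where 1784 genes reached an r above 0.95 with *enpep* and 3118 with *ly75*.

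Among the cysteine proteases of the lysosome, *ctsla* (ENSDARG00000007836), a cathepsin L gene, rose most. It had 1950, 2605 and 2719 counts in *foxn1*-/- libraries, against 489, 629 and 475 counts in *foxn1*+/+ libraries. The genotypes were separated by a factor that exceeded the spread within either of them, with 66.6 ± 8.52 CPM in *foxn1*-/- thymi and 13.2 ± 3.30 CPM in *foxn1*+/+ thymi (SD, n = 3 each). The log2 fold change was 2.34 (SE 0.205, adjusted p = 9.4e-05, edgeR) and lay between 1.93 and 2.50 over 13 alternative settings, past the threshold in each.

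A second cathepsin L gene, *ctsll* (ENSDARG00000011701), which is not a member of the set but the gene with most reads and the largest change in the list of other lysosomal peptidases, went the other way. It had 6, 18 and 4 counts in *foxn1*-/- libraries and 28141, 19864 and 15639 counts in *foxn1*+/+ libraries. This gave a log2 fold change of -10.94 (SE 0.482, adjusted p = 2.2e-05, edgeR), an estimate that rests on these few counts in *foxn1*-/- libraries. A further cathepsin L gene, *ctsl.1*, also fell, with a log2 fold change of -1.16 (adjusted p = 0.0135, edgeR). Of the counts of *ctsla*, *ctsll* and *ctsl.1* together, a share computed after the values had been seen, *ctsla* held 96.3%, 95.9% and 98.3% in *foxn1*-/- libraries and 1.69%, 3.05% and 2.92% in *foxn1*+/+ libraries. The 3 genes summed to between 59.0 and 73.9 CPM in *foxn1*-/- libraries and to between 433 and 600 CPM in *foxn1*+/+ libraries. How reads matching several genes were counted is not given in the sources used here.

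The cathepsin S genes of the set fell, and the paralogues did so to different extents. Outside the set, *ctss1* fell as well, with a log2 fold change of -1.21 (adjusted p = 0.00089, edgeR). *ctss2.1* (ENSDARG00000074656) had 384, 516 and 337 counts in *foxn1*-/- libraries, against 3168, 2229 and 2032 counts in *foxn1*+/+ libraries, which places every *foxn1*-/- library far below the others. Mean levels were 11.4 ± 2.44 CPM in *foxn1*-/- thymi and 59.7 ± 5.82 CPM in *foxn1*+/+ thymi (SD, n = 3 each), and the log2 fold change was -2.39 (SE 0.179, adjusted p = 5.6e-05, edgeR). Its neighbour *ctss2.2* (ENSDARG00000013771) had 1081, 1257 and 741 counts in *foxn1*-/- libraries and 2564, 1759 and 1374 counts in *foxn1*+/+ libraries. Here the groups nearly met, at 33.8 CPM in *foxn1*-/- replicate 2 and 36.7 CPM in *foxn1*+/+ replicate 3. The log2 fold change was -0.68 (SE 0.231, adjusted p = 0.0312, edgeR). This call was lost with voom and treat (adjusted p = 0.0745), and in edgeR without *foxn1*-/- replicate 1 (0.0662), *foxn1*-/- replicate 3 (0.0990, log2 fold change -0.41), *foxn1*+/+ replicate 1 (0.0833) or *foxn1*+/+ replicate 2 (0.0654).

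**Figure D2:**
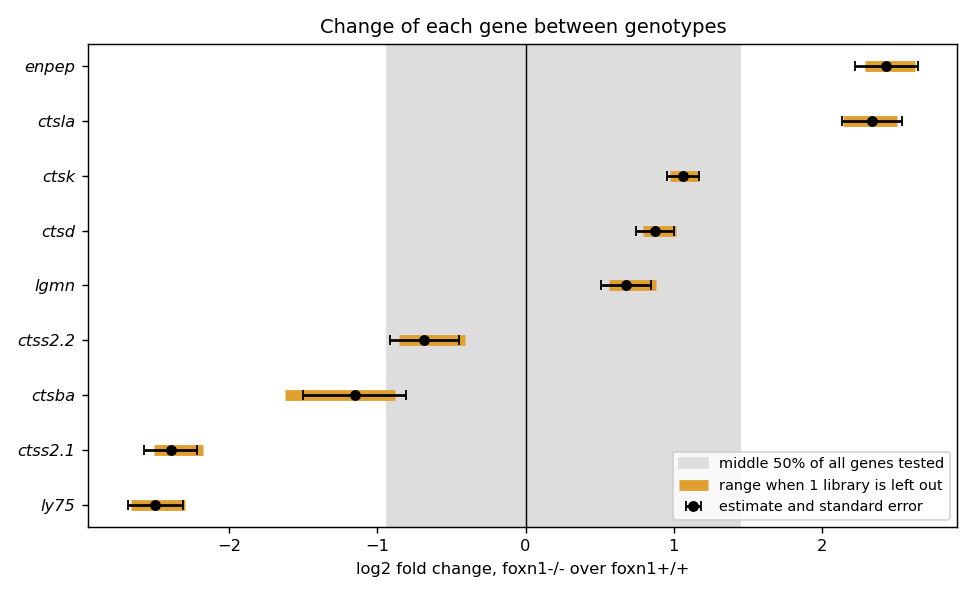
Log2 fold change of each gene, *foxn1*-/- over *foxn1*+/+; points and thin bars give the edgeR estimate and its standard error, orange bars the range when any 1 of the 6 libraries is left out, and the grey band the middle 50% of all genes tested (-0.93 to 1.44). *ly75*, *ctss2.1*, *ctsba*, *ctsla* and *enpep* lie outside the band, and *ctss2.2* and *lgmn* lie closest to 0.

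*ctsk*, *ctss2.1* and *ctss2.2* follow one another as protein-coding genes on chromosome 16 in the RefSeq annotation of the GRCz12tu assembly, whereas the counts were made on GRCz11. Cathepsin K is the collagen-degrading protease of osteoclasts in mice and humans. *ctsk* (ENSDARG00000040251) had 3770, 3799 and 4333 counts in *foxn1*-/- libraries, against 2348, 2136 and 1931 counts in *foxn1*+/+ libraries. It was the steadiest gene of the set, with coefficients of variation of 6.24% among *foxn1*-/- libraries and 7.72% among *foxn1*+/+ libraries. Mean levels were 109 ± 6.82 CPM in *foxn1*-/- thymi and 52.3 ± 4.04 CPM in *foxn1*+/+ thymi (SD, n = 3 each), a log2 fold change of 1.06 (SE 0.107, adjusted p = 0.00015, edgeR). It kept its call under all 13 alternative settings, with values between 0.66 and 1.17. The lowest came with library size alone and is less than 2-fold.

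Ratios within a library need no scaling between libraries. Since *ctsk* rose and its neighbours fell without overlap in CPM, the share of *ctsk* had to separate the genotypes. That share adds nothing to the calls, whereas *ctss2.1* and *ctss2.2* changed in the same direction, so that their ratio was not fixed in this way. Of the counts of the 3 genes together, *ctsk* held 72.0%, 68.2% and 80.1% in *foxn1*-/- libraries and 29.1%, 34.9% and 36.2% in *foxn1*+/+ libraries. *ctss2.1* held 7.34%, 9.26% and 6.23% in *foxn1*-/- libraries and 39.2%, 36.4% and 38.1% in *foxn1*+/+ libraries. The log2 ratio of *ctss2.1* to *ctss2.2* was -1.30 ± 0.179 in *foxn1*-/- libraries and 0.40 ± 0.140 in *foxn1*+/+ libraries (SD, n = 3 each), a difference of -1.71 without overlap (exact permutation test, two-sided p = 0.1). This is the smallest p that 3 libraries against 3 allow.

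**Figure D3:**
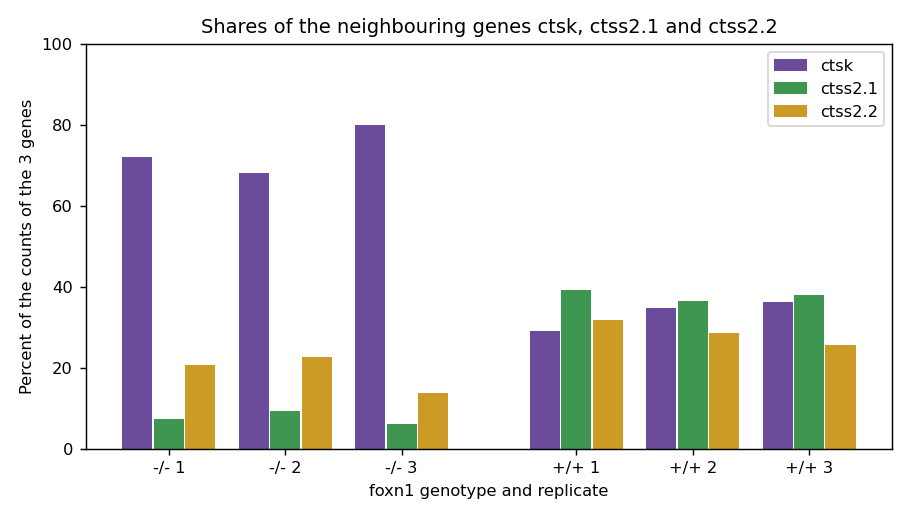
Share of *ctsk*, *ctss2.1* and *ctss2.2* in their summed counts in each library, *foxn1*-/- on the left and *foxn1*+/+ on the right; bars of a library add up to all counts of the 3 genes. *ctsk* holds between 68.2% and 80.1% in *foxn1*-/- libraries and between 29.1% and 36.2% in *foxn1*+/+ libraries.

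Markers of cells that carry these proteases differed too. All 6 osteoclast identifiers were higher in *foxn1*-/- thymi, with sums between 723 and 858 CPM in *foxn1*-/- libraries and between 50.7 and 165 CPM in *foxn1*+/+ libraries, most of it from *acp5a*, the tartrate-resistant acid phosphatase. All 12 connective tissue identifiers and 12 of 13 for cartilage and bone were higher as well. The connective tissue identifiers held between 1.58% and 2.35% of all counts in *foxn1*-/- libraries and between 0.183% and 0.833% in *foxn1*+/+ libraries. Of 11 macrophage and dendritic cell markers, 2 were higher and 6 lower, with sums between 126 and 185 CPM in *foxn1*-/- libraries and between 195 and 231 CPM in *foxn1*+/+ libraries. Those that fell were *irf8*, *flt3* and *batf3*, which take part in the development of dendritic cells, and the complement genes *c1qa*, *c1qb* and *c1qc*, whereas *csf1ra* and *timd4* rose. All 5 B cell identifiers were higher, at between 44.7 and 56.1 CPM in *foxn1*-/- libraries and between 12.1 and 13.0 CPM in *foxn1*+/+ libraries. No marker of these lists was at 0 in all libraries. What part such cells had in the changes of *ctsk*, *ctss2.1* and *ctss2.2* was not tested.

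*lgmn* (ENSDARG00000039150) encodes legumain, which cuts after asparagine and can start the processing of antigens and of cathepsins. It had 6554, 7598 and 5522 counts in *foxn1*-/- libraries, against 6408, 3981 and 3757 counts in *foxn1*+/+ libraries, so that *foxn1*-/- replicate 3 held fewer counts than *foxn1*+/+ replicate 1. After normalization the levels were 181 ± 29.7 CPM in *foxn1*-/- thymi and 113 ± 17.6 CPM in *foxn1*+/+ thymi (SD, n = 3 each), without overlap. The log2 fold change was 0.68 (SE 0.169, adjusted p = 0.00861, edgeR). Scaling by library size alone gave 0.27 (adjusted p = 0.172, edgeR), where the median of all genes was -0.39 in place of 0.02.

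*ctsba* (ENSDARG00000055120) encodes cathepsin B, a cysteine protease that also trims peptides from their end. It had 547, 642 and 1473 counts in *foxn1*-/- libraries, against 2683, 2219 and 1758 counts in *foxn1*+/+ libraries. *foxn1*-/- replicate 3 stood apart from the other 2 libraries of its genotype, at 39.4 CPM against 15.9 and 17.3 CPM, but below the lowest *foxn1*+/+ library at 46.9 CPM. The coefficient of variation was accordingly 54.4% among *foxn1*-/- libraries, the highest of the set, and 11.6% among *foxn1*+/+ libraries. The log2 fold change was -1.15 (SE 0.350, adjusted p = 0.0210, edgeR) and became -1.62 without *foxn1*-/- replicate 3 (adjusted p = 0.000397, edgeR). The call was lost without *foxn1*-/- replicate 1 (-0.88, adjusted p = 0.0623), *foxn1*-/- replicate 2 (-0.91, adjusted p = 0.0704) or *foxn1*+/+ replicate 2 (-1.12, adjusted p = 0.0523). The number of genes of the set called lower was therefore 2 in place of 4 without *foxn1*-/- replicate 1 or without *foxn1*+/+ replicate 2. *foxn1*-/- replicate 3 was also the library with the lowest *ctss2.2* level (19.8 CPM), the lowest thymocyte sum (247 CPM, against 648 and 667 CPM in the other *foxn1*-/- libraries) and the highest erythrocyte sum (2667 CPM, against 1000 and 1078 CPM), and the part of these cells in its *ctsba* level was not tested.

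*ctsd* (ENSDARG00000057698) encodes cathepsin D, the aspartic protease of the set, which degrades proteins at the low pH of lysosomes. It had 4860, 6300 and 5030 counts in *foxn1*-/- libraries, against 4335, 2890 and 2870 counts in *foxn1*+/+ libraries. Mean levels were 149 ± 18.5 CPM in *foxn1*-/- thymi and 81.1 ± 7.73 CPM in *foxn1*+/+ thymi (SD, n = 3 each), and the log2 fold change was 0.87 (SE 0.131, adjusted p = 0.00086, edgeR). The gene kept its call under all 13 alternative settings, with values between 0.47 and 1.01.

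Summed over the 9 genes, the genotypes overlapped in normalized CPM, with 615, 674 and 589 CPM in *foxn1*-/- libraries and 710, 615 and 645 CPM in *foxn1*+/+ libraries. As unscaled shares of all counts they did not overlap. The 9 genes held 0.0515%, 0.0596% and 0.0522% in *foxn1*-/- libraries and 0.0820%, 0.0724% and 0.0723% in *foxn1*+/+ libraries. The make-up of this sum differed. *ly75* provided between 5.85% and 7.31% of it in *foxn1*-/- libraries and between 31.2% and 40.7% in *foxn1*+/+ libraries. *lgmn* and *ctsd* provided between 25.1% and 31.0% and between 22.8% and 25.2% in *foxn1*-/- libraries, and between 15.5% and 18.8% and between 11.9% and 12.7% in *foxn1*+/+ libraries. Longer transcripts collect more reads, so these shares describe reads and not molecules.

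**Figure D4:**
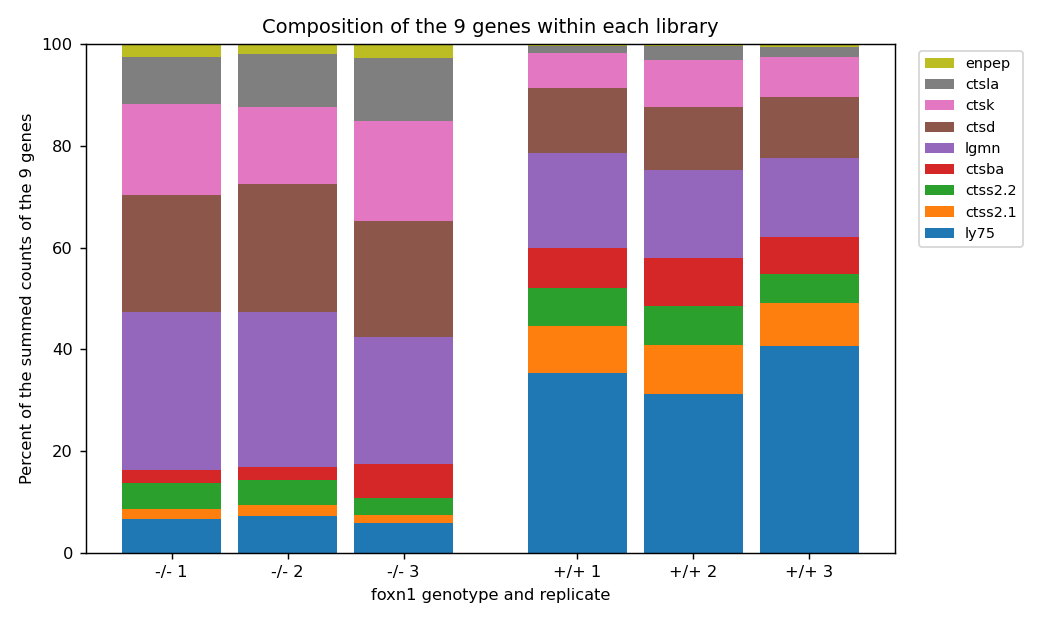
Share of each gene in the summed counts of the 9 genes, for *foxn1*-/- libraries on the left and *foxn1*+/+ libraries on the right; each stacked bar is 1 library. The share of *ly75* is between 5.85% and 7.31% in *foxn1*-/- libraries and between 31.2% and 40.7% in *foxn1*+/+ libraries.

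Of the 36 pairs of genes in the set, 20 join a gene that rose with one that fell. Since none of the 9 genes overlapped in CPM, the ratios of these pairs could not overlap and add nothing to the calls. Of the 16 pairs that changed in the same direction, 10 had log2 count ratios without overlap between genotypes, each with the smallest p the exact permutation test allows (0.1, two-sided, and so not below 0.1 when adjusted over the 36 pairs), and 6 overlapped. How often same-direction pairs of other genes separate was not computed, so these counts are not read as particular to the set. The log2 ratio of *enpep* to *ctsla* was -2.13 ± 0.287 in *foxn1*-/- libraries and -2.23 ± 0.529 in *foxn1*+/+ libraries (exact permutation test, p = 0.9). The ratio of *ly75* to *ctss2.1* was 1.88 ± 0.0534 in *foxn1*-/- libraries and 1.97 ± 0.292 in *foxn1*+/+ libraries (SD, n = 3 each, exact permutation test, p = 0.8). The remaining overlapping pairs were those among *lgmn*, *ctsd* and *ctsk*, and *ctss2.2* with *ctsba*.

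Further genes of the lysosome and of antigen processing were examined in 7 lists. Their counts, like those of the marker lists, stand beside 36.2% higher and 35.9% lower among all genes tested. Of 16 other lysosomal cathepsins and peptidases tested, 11 were lower and 2 higher in *foxn1*-/- thymi, with a median log2 fold change of -0.45. Besides *ctsll*, *ctsc*, which encodes the dipeptidyl peptidase cathepsin C, fell to 80.8 ± 8.75 CPM in *foxn1*-/- thymi, against 137 ± 15.1 CPM in *foxn1*+/+ thymi (SD, n = 3 each). *ctsf* (cathepsin F) and *dpp7* were the genes that rose. The number lower was 7 with voom and treat, and likewise in edgeR without *foxn1*-/- replicate 3. Of 9 inhibitors of these proteases tested, 2 were higher and 3 lower. *cst3*, the cysteine protease inhibitor cystatin C, had 287 ± 11.8 CPM in *foxn1*-/- thymi, against 80.5 ± 14.6 CPM in *foxn1*+/+ thymi (SD, n = 3 each), with a log2 fold change of 1.83 (adjusted p = 7.4e-05, edgeR). *serpinb1l3* rose by less, with a log2 fold change of 0.54, and lost this call with library size alone and with voom and treat.

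Of 32 glycosidases, lipases and other hydrolases of the lysosome, 14 were lower, 3 higher and 15 neither (median log2 fold change -0.42). With library size alone 22 were lower. Those with most reads fell. *ppt1*, palmitoyl-protein thioesterase, fell by 2.15 on the log2 scale. *psap*, the precursor of saposins, had 266 ± 25.6 CPM in *foxn1*-/- thymi, against 611 ± 44.5 CPM in *foxn1*+/+ thymi (SD, n = 3 each). Of 36 genes of the lysosomal membrane and proton pump, 16 were higher, 4 lower and 16 neither, with a median of 0.29. These counts depend on the scaling, since 5 were higher and 12 lower with library size alone. The median of the list was then -0.11 and that of all genes -0.39. The number higher was 10 with voom and treat, and likewise in edgeR without *foxn1*+/+ replicate 1. The membrane proteins *cd63* and *laptm4a* overlapped between genotypes (log2 fold changes -0.07 and -0.04, adjusted p = 0.592 and 0.739, edgeR), but were called lower with library size alone. An *ATP6V0C* identifier of the proton pump (ENSDARG00000036577) had the largest change among genes of the list that averaged 10 CPM or more, 2.64. The other *ATP6V0C* identifier, ENSDARG00000057853, overlapped between genotypes. It had 130 ± 17.5 CPM in *foxn1*-/- thymi and 111 ± 9.29 CPM in *foxn1*+/+ thymi (SD, n = 3 each), with a log2 fold change of 0.22 (adjusted p = 0.173, edgeR).

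Of 12 genes for sorting to lysosomes and for lysosomal transcription factors, 4 were higher and 4 lower. The mannose 6-phosphate receptor *m6pr*, which carries newly made hydrolases to lysosomes, fell by 1.03 on the log2 scale. Of the *SORT1* identifiers, which stand for the sorting receptor sortilin, ENSDARG00000029402 rose by 2.61 and ENSDARG00000056252 had a log2 fold change of 0.20 (adjusted p = 0.245, edgeR). Of 12 cytosolic and reticulum peptidases tested, 10 were lower and none was higher (median -0.69). Among these *erap2*, an aminopeptidase that trims MHC class I peptides in humans, fell to 18.1 ± 2.46 CPM in *foxn1*-/- thymi, against 123 ± 19.4 CPM in *foxn1*+/+ thymi (SD, n = 3 each), whereas *npepps*, a cytosolic aminopeptidase with most reads in the list, had a log2 fold change of -0.16 (adjusted p = 0.161, edgeR) and was called lower with library size alone. All 4 genes of the mannose receptor family other than *ly75* rose, with log2 fold changes between 1.58 and 2.81, opposite to *ly75*. Of these, *mrc1b* had 40.8 ± 1.58 CPM in *foxn1*-/- thymi and 11.3 ± 2.80 CPM in *foxn1*+/+ thymi, and *mrc1a* had 17.8 ± 0.741 CPM in *foxn1*-/- thymi and 4.19 ± 1.16 CPM in *foxn1*+/+ thymi (SD, n = 3 each).

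**Figure D5:**
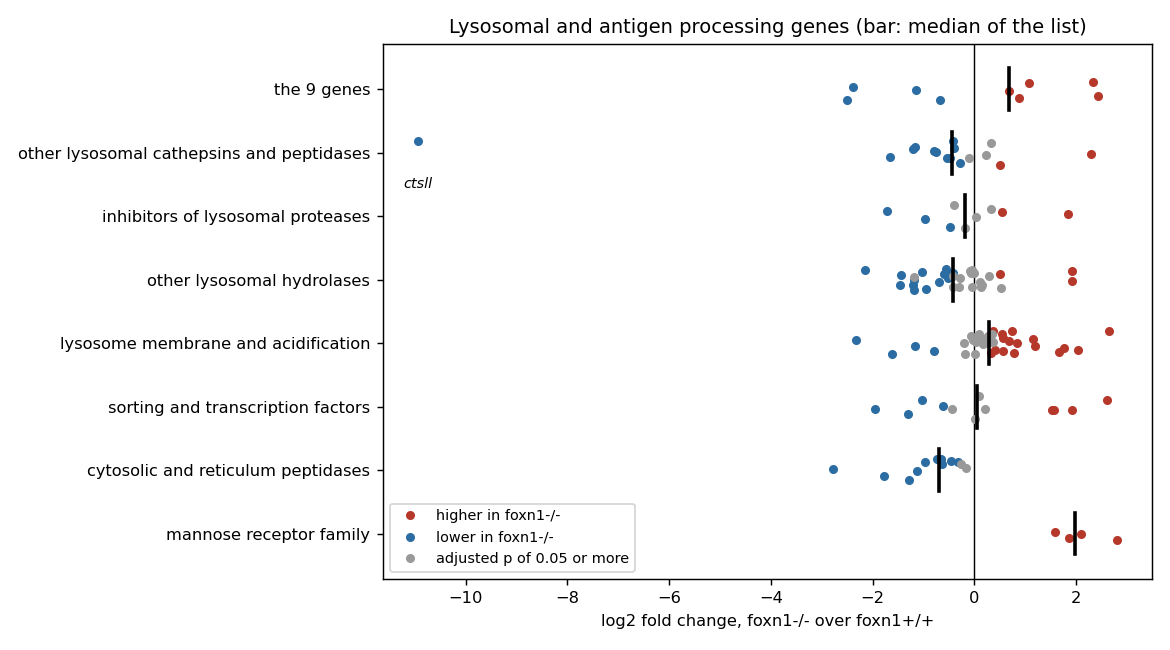
Log2 fold change, *foxn1*-/- over *foxn1*+/+, of every gene tested in the 9-gene set and in 7 lists of lysosomal and antigen processing genes; each point is 1 gene, red higher, blue lower and grey neither, and black bars are list medians. *ctsll* stands apart at -10.94, and the median is -0.69 for cytosolic and reticulum peptidases and 1.98 for the mannose receptor family.

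The other marker lists moved as follows. All 7 endothelial, 8 muscle and 7 erythrocyte identifiers and all 8 mitochondrially encoded genes were higher in *foxn1*-/- thymi. The 8 muscle identifiers held between 8.10% and 10.97% of all counts in *foxn1*-/- libraries and between 0.797% and 1.79% in *foxn1*+/+ libraries. Of 5 neutrophil markers 2 were higher and none lower. The number higher was 1 without *foxn1*+/+ replicate 1 and 3 without *foxn1*-/- replicate 3. With library size alone, 1 neutrophil marker was higher and 1 lower. Neutrophil sums lay between 403 and 464 CPM in *foxn1*-/- libraries and between 42.4 and 97.8 CPM in *foxn1*+/+ libraries. The 4 skin identifiers were called higher, but their sums overlapped, at between 6553 and 20562 CPM in *foxn1*-/- libraries and between 2807 and 8490 CPM in *foxn1*+/+ libraries. The number of skin identifiers called was 0 without *foxn1*+/+ replicate 1 or replicate 3, 1 without *foxn1*-/- replicate 3 or with library size alone, and 2 without *foxn1*-/- replicate 1. Their part in the results above was not tested.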

How the data were processed

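The authors trimmed reads with Trim Galore 0.4.3.1, aligned them with HISAT2 2.1.0, counted them with featureCounts 1.6.1.0 (build GRCz11, from the submitters' processing notes) and deposited raw counts per Ensembl gene. Which annotation release and strand option were used, and how reads with several alignments were handled, is not given in the sources used here. The labels gave genotype and replicate number. Symbols came from a table that names 29201 of 32520 identifiers, some by their human orthologue. Where several identifiers share a symbol, all were used.

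The 23805 genes that exceeded 5 counts in 3 or more of the 6 libraries were tested with TMM and the two-sided quasi-likelihood test of edgeR 4.0.16 in R 4.3.3, with Benjamini-Hochberg adjustment at 0.05. The standard error (SE) of a log2 fold change is its size divided by the square root of the F statistic. Replicates are separate pools of fish, and p-values measure the spread between these pools. No library was a copy of another (chi-square per degree of freedom between 33.2 and 105 within genotypes). Within-library log2 ratios used counts plus 0.5 and an exact permutation test. Alternatives were DESeq2 1.42.0, voom and treat (limma 3.58.1, fold change 1.2), and edgeR with changed settings: unscaled library sizes, DESeq2 size factors, all genes unfiltered, a minimum of 10 counts throughout, a replicate block, or 1 library fewer. The genes of 7 pathway lists (116 of 126 entries matched) and 16 marker lists (119 of 132) were counted without a set test. Of each pathway list, the 2 genes with most reads and the most changed gene averaging 10 CPM or more were named. *ctsf*, *dpp7*, *ctss1*, *ctsl.1*, the *ATP6V0C* identifier ENSDARG00000057853 and the markers named were chosen after their values were seen. Members and lists were chosen with earlier results of these data known. The tests were run on simulated data, where the first criterion for the number of changed genes recovered was missed and was then restated for genes with higher counts.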

Additional observations from a re-analysis of the deposited data

How the results depend on the processing

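Of 117 log2 fold changes of the 9 genes under 13 alternatives, none changed direction and 108 stayed on their side of the threshold. The 9 that did not were those of *ctss2.2*, *ctsba* and *lgmn* named above, and their cause was not tested. Leaving out 1 library gave 5 genes higher in each case and between 2 and 4 lower, and between 14714 and 16309 genes called in all, against 17165 with all libraries. With library size alone, 38.4% of the calls were higher in *foxn1*-/- thymi in place of 50.2%. The labels do not say whether equally numbered libraries were paired, and the main fit used no pairing. Deviations of equally numbered libraries correlated with r of 0.14, -0.06 and -0.01, and not every library correlated best with its own number. Such correlations cannot settle whether the samples were paired. With the replicate block, 16308 genes were called, and 5 genes of the set were higher and 4 lower. Counts per list were recomputed under the same alternatives after seeing the data. For the 31 counts above 0, 27 of 403 values were lower by more than 1.5 times and 2 were higher by as much. Of the thymic epithelium list, 2 genes were called lower in place of 4 without any 1 of the *foxn1*+/+ libraries, as 10 in place of 12 identifiers then passed the filter. The depth limits *ctsll* in *foxn1*-/- thymi, where it had at most 18 counts.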
